A study of Rattus norvegicus with 12 samples.

Results

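The circular RNAs (circRNAs) of 5 genes of the urea cycle and of amino acid breakdown were followed in the liver of diabetic rats: Cps1, Otc, Kynu, Prodh2 and Aldh4a1. They were taken by gene name from the deposited circRNA table. Entries filed under an Ensembl identifier were added where they shared a transcript or a back-splice junction with an entry under the gene's symbol. This gave 70 of the table's 21876 entries, which described 64 of 21068 junctions and 5 of 6021 host genes, the genes from which circRNAs derive. In 12 of 12 libraries these 5 genes together gave between 0.31% and 1.01% of all back-splice reads.

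The relapse group held 2 libraries from rats whose diabetes came back after sleeve gastrectomy, in which most of the stomach is cut away. The SG group held 5 libraries from diabetic rats sampled 3 months after sleeve gastrectomy, and the sham group held 5 libraries from diabetic rats that had a sham operation. All were wild-type Wistar rats. Per the labels, every rat was fed a diet with 60% of calories as fat for 4 weeks and then received 1 injection of streptozotocin, which kills the insulin-secreting beta cells, at 35 mg/kg after 16 h without food. Rats above 16.7 mmol/L fasting blood glucose 3 days later entered the study, so the sham rats were diabetic too and no group of non-diabetic rats was analysed here. The sources used here give no ages and, for the relapse and sham rats, no time between surgery and sampling. The labels do not say that each library came from a separate rat, so p-values measure the spread between these libraries, which may be technical.

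A circRNA forms when the end of a downstream exon is joined back to the start of an upstream one, and reads across that back-splice junction identify it. Liver is the main site of the urea cycle, which turns ammonia released from amino acids into urea. Cps1 (carbamoyl phosphate synthetase) makes the first intermediate from ammonia in hepatocyte mitochondria, and Otc (ornithine transcarbamylase) uses it to make citrulline. Kynu (kynureninase) cleaves kynurenine and 3-hydroxykynurenine on the route that breaks down tryptophan. Prodh2 oxidises hydroxyproline, and Aldh4a1 catalyses a later step in the breakdown of hydroxyproline and of proline in the mitochondrion.

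Each library held 18176 to 37229 back-splice reads, and levels are given as reads per 1000000 of them (RPM). A count of 0 then allows up to 80.6 to 165 RPM in a single library, taking 3 reads as the floor. Of 11 hepatocyte markers, 9 had back-splice reads, with Apoa1 and Ttr at 0, which says nothing about their linear mRNA. The 9 summed to 20408 and 19259 RPM in relapse, 24666 to 37097 RPM in SG and 23111 to 34331 RPM in sham, so both relapse libraries lay below the other 10. The largest of them, Cyp2c7, a cytochrome P450, gave 11422 and 12275 RPM in relapse, 14053 to 25282 RPM in SG and 16708 to 23603 RPM in sham. Of the 9, only Cyp2c7 taken singly was lower in both relapse libraries than in every other library. Groups without overlap, in either direction, made up 10.3% of tested hosts between relapse and SG and 10.1% between relapse and sham. Alb gave 1786 and 1236 RPM in relapse and 937 to 1986 RPM in sham. C3 gave 2490 and 1853 RPM in relapse and 1069 to 2696 RPM in sham. All 6 cholangiocyte markers and all 7 pancreas and gut markers were at 0. Of 7 Kupffer cell and macrophage markers, 2 had reads, at 0 and 242 RPM in relapse, 0 to 786 RPM in SG and 0 to 418 RPM in sham, and Clec4f, Cd163, Cd68, Marco and Timd4 were at 0. Of 8 stellate cell markers, 2 had reads, at 216 and 80.6 RPM in relapse, 0 to 344 RPM in SG and 0 to 232 RPM in sham. Of 6 endothelial markers, 4 had reads, at 108 and 188 RPM in relapse, 0 to 205 RPM in SG and 0 to 199 RPM in sham. Lymphocyte markers gave 1 read and erythroid markers 3. In whole liver, fewer cells of a type and less RNA per cell cannot be told apart. The part of these markers in the results below was not tested.

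None of the 5 hosts passed a false discovery rate (FDR) of 0.05 in any comparison, by edgeR's quasi-likelihood test or by DESeq2. All 5 were among the 1337 hosts tested. Otc passed the filter on low counts only through SG: its sum reached the filter's 268 RPM in 3 SG libraries and in 0 relapse and 0 sham libraries. Between SG and sham, edgeR called 2 of the 1337 hosts, a background of 0.15%; an unadjusted p under 0.05 was reached by 50 (3.74%), and DESeq2 called 0. Between relapse and SG, edgeR called 1 host (0.0748%), 58 reached an unadjusted p under 0.05 (4.34%), and DESeq2 called 0. Between relapse and sham, edgeR called 2 hosts (0.15%), 79 reached an unadjusted p under 0.05 (5.91%), and DESeq2 called 2. In the edgeR fit above, none of the 5 reached even an unadjusted p under 0.05. Under other settings some did and others did not. For Cps1 in relapse against sham, the unadjusted edgeR p was 0.0166 with no filter and 0.101 from symbol entries alone. Of the 64 junctions, 5 were among the 1519 tested, and none passed. None of the 1519 tested junctions passed in any comparison (0% each time) in edgeR or DESeq2. An unadjusted edgeR p under 0.05 was reached by 59 (3.88%) for SG against sham. It was reached by 73 (4.81%) for relapse against SG and 88 (5.79%) for relapse against sham. Under some other settings, such as no filter, junctions of other hosts did pass, as given in the closing section. Groups without overlap in RPM were rare between SG and sham, at 0.823% of tested hosts and 0.987% of tested junctions, and none of the 5 hosts or of their 5 tested junctions was among them. With 2 relapse libraries they were more frequent, at 10.3% of hosts and 9.22% of junctions between relapse and SG.

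**Figure D1:**
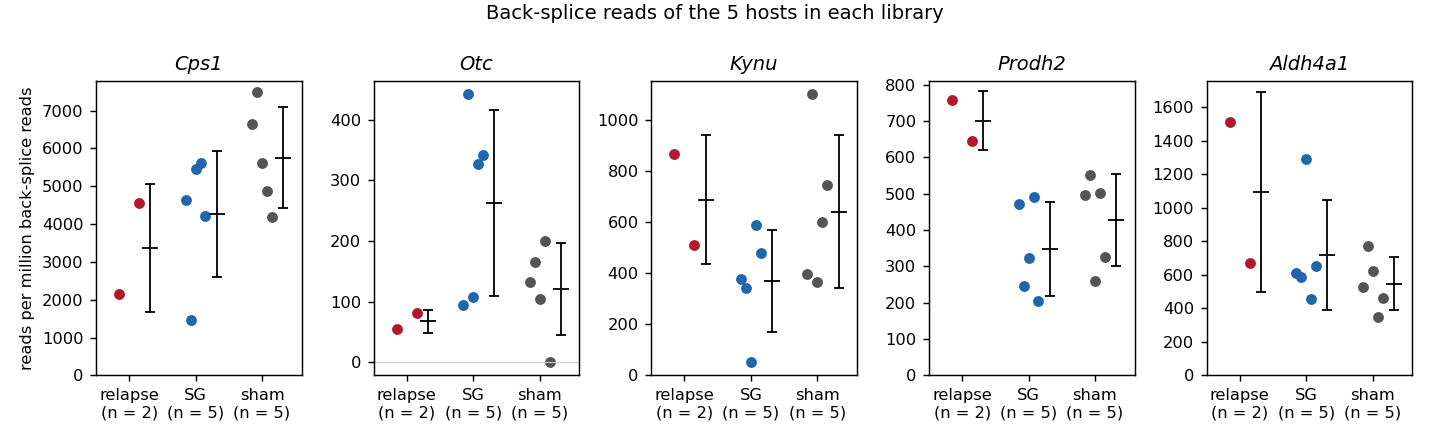
Back-splice RPM (linear axes from 0, scaled per gene) of the 5 hosts in the relapse, SG and sham libraries. Each point is 1 library, and the bars give the mean and SD. Cps1 is lowest in SG replicate 2 at 1474 RPM and in relapse replicate 1 at 2165 RPM. Both Prodh2 relapse points, at 758 and 645 RPM, lie above all SG and sham points. The 645 RPM point, relapse replicate 2, includes 8 reads of ciRNA560, which had reads in no other library.

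Cps1 was the most abundant of the 5, with 1365 reads, rank 14 of 6021 hosts. Its host sum was 2165 and 4566 RPM in relapse. In SG it was 4631, 1474, 5447, 5603 and 4212 RPM. In sham it was 6653, 7482, 5621, 4864 and 4184 RPM. Relapse replicate 1 and SG replicate 2 were low, below every sham library, while the other SG libraries and relapse replicate 2 lay inside the sham range, so the groups overlapped. Means were 3366 ± 1698 RPM in relapse (SD, n = 2), 4273 ± 1667 RPM in SG (n = 5) and 5761 ± 1329 RPM in sham (n = 5). All 5 SG and both relapse libraries lay below the sham mean. The log2 fold change for SG against sham was -0.43 (SE 0.29, 95% interval -1.01 to 0.14, edgeR FDR 0.997, unadjusted p 0.154), and without SG replicate 2 it was -0.18. For relapse against sham it was -0.79 (SE 0.40, interval -1.58 to 0.00, edgeR FDR 0.806, unadjusted p 0.0636). That value was -1.52 without relapse replicate 2 and -0.24 without relapse replicate 1. For relapse against SG it was -0.36 (SE 0.40, interval -1.14 to 0.42, FDR 1 in edgeR), and without relapse replicate 1 it was 0.16.

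The counts behind the 2 low libraries were 40 reads in relapse replicate 1 and 30 in SG replicate 2. Their exact 95% Poisson intervals, 1547 to 2949 RPM and 994 to 2104 RPM, did not reach the 3365 RPM lower bound of the lowest sham library. These intervals cover counting error only. SG replicate 2 also had the highest summed Kupffer cell markers (786 RPM) and stellate cell markers (344 RPM) of the 12 libraries, while its hepatocyte marker sum, 24666 RPM, was above the lowest sham library. Albumin gave 1327 RPM there, within the sham range of 937 to 1986 RPM. The part of these values in the Cps1 level was not tested.

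Nearly all Cps1 reads came from 1 circle. The table lists 34 junctions for Cps1, the fourth largest number of all hosts, yet circRNA2271 held 1280 of the 1365 reads (93.8%) and ranked 15 of 21068 junctions. It joins the end of exon 14 to the start of exon 12 of transcript ENSRNOT00000019023 and spans chromosome 9, 74164334 to 74167718, plus strand, on Rnor_6.0, an exonic circle of 3 exons. Starts are printed as in symbol entries; identifier entries of the same junction start 1 base higher, and the table does not say from which number it counts. Reads of circRNA2271 were 37 and 162 in relapse, 94, 26, 95, 164 and 113 in SG, and 184, 129, 106, 86 and 84 in sham. The share of Cps1 reads in circRNA2271 was 92.5% and 95.3% in relapse, 86.7% to 95.9% in SG and 88.7% to 98.2% in sham, so the groups overlapped. Its lowest value, 86.7% in SG replicate 2, has an exact binomial interval of 69.3% to 96.2%. The mean shares were 93.9% ± 1.98 in relapse, 92.9% ± 3.85 in SG and 93.3% ± 3.56 in sham (SD, n = 2, 5 and 5). SG minus sham was -0.42 percentage points (exact two-sided permutation test, p = 0.873, adjusted over 3 comparisons 0.873). Relapse minus SG was 1.01 points and relapse minus sham 0.59 points (exact permutation p = 0.857 and 0.857, adjusted 0.873 each). With 2 relapse libraries the smallest p this test can give is 0.0952.

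The other 33 Cps1 junctions held 85 reads, 1 to 11 each. Of them, 23 were seen in 1 library, 17 with a single read, and 4 were intronic with 6 reads in all. They gave 11 reads in relapse, 31 in SG and 43 in sham, which is 197 RPM, 259 RPM and 394 RPM of the pooled libraries. The largest was circRNA15320 (exons 29 to 34, chromosome 9, 74214594 to 74225202), whose 11 reads all came from sham, with 6, 3, 0, 0 and 2 reads. It had 0 reads in relapse and in SG, which allows up to 53.9 RPM over the relapse libraries and 25.1 RPM over the SG libraries. The next, circRNA15317 (exons 6 to 15), had 8 reads, 7 of them in sham replicate 1 and 1 in sham replicate 2. Junction edges recurred: the exon 6 start was shared by 4 exonic junctions and the exon 34 end by another 4 of the 30 exonic Cps1 junctions.

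**Figure D2:**
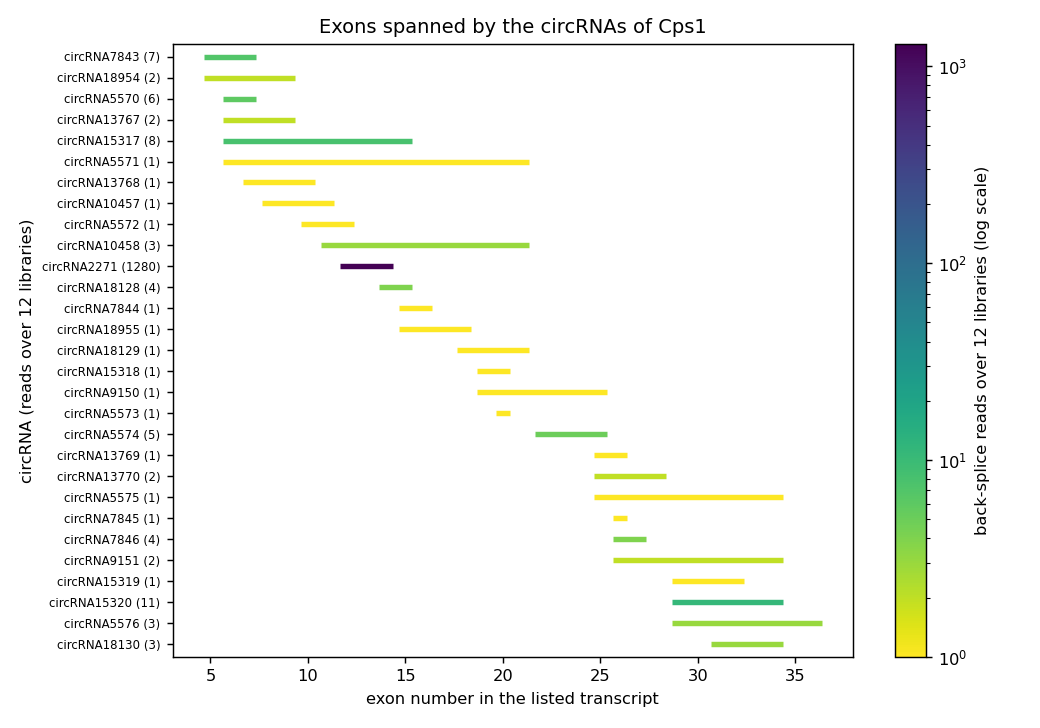
Exons spanned by the exonic circRNAs of Cps1 whose exon numbers the table gives (x axis, exon number in the listed transcript). Each row is 1 circRNA with its reads over 12 libraries in brackets, and the colour gives the reads on a log scale. The 1280 reads of circRNA2271, over exons 12 to 14, stand against at most 11 for any other row.

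Among the 194 hosts with a mean of at least 20 reads, the 3 whose log2 levels followed Cps1 most closely over the 12 libraries were Phyh (Pearson r = 0.87), a peroxisomal enzyme of phytanic acid breakdown, Mapkap1 (r = 0.86), a subunit of the mTORC2 kinase complex, and Slc16a10 (r = 0.81), a transporter of aromatic amino acids. These are descriptions: the 12 points share libraries, depth and the 2 low samples. Phyh gave 2022 ± 103 RPM in relapse, 2112 ± 854 RPM in SG and 2598 ± 323 RPM in sham, and its lowest library, at 786 RPM, was also in SG. The other 4 genes were too sparse for this comparison.

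Otc, the next enzyme of the cycle, was the least abundant, with 50 reads over 12 libraries. Its host counts were 1 and 3 reads in relapse, 2, 9, 2, 10 and 10 in SG, and 4, 3, 2, 4 and 0 in sham. In RPM these were 54.1 and 80.6 in relapse, 94.5, 442, 108, 328 and 342 in SG, and 132, 165, 104, 201 and 0 in sham. SG replicates 2, 4 and 5 were high and the other 2 SG libraries lay inside the sham range. Both relapse libraries were below every SG library, a separation also seen in 10.3% of tested hosts between relapse and SG, and they rest on 4 reads. Means were 67.4 ± 18.7 RPM in relapse, 263 ± 154 RPM in SG and 120.4 ± 76.4 RPM in sham. SG against sham gave a log2 fold change of 1.11 (SE 0.89, interval -0.64 to 2.86, edgeR FDR 0.997). Relapse gave -1.89 against SG (SE 1.30, FDR 1 in edgeR) and -0.78 against sham (SE 1.29, edgeR FDR 0.989). From symbol entries alone, which hold 1 of the 4 relapse reads, these were -3.42 and -2.27 (edgeR FDR 0.997 and 0.931). Because the filter let Otc through by its SG counts, its difference from SG is partly set by that choice.

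Otc had 6 junctions on the minus strand of chromosome X. circRNA6430 (exons 2 to 4, 13570245 to 13587762) had 23 reads: 0 and 0 in relapse, 2, 5, 0, 5 and 7 in SG, and 2, 2, 0, 0 and 0 in sham. SG held 19 of the 23. circRNA12 (exons 5 to 9, 13531695 to 13543246) had 13 reads, with 1 and 0 in relapse, 0, 1, 1, 0 and 3 in SG, and 0, 1, 2, 4 and 0 in sham. SG held 5 of its 13 reads and sham 7. The other 4 junctions held 1 to 8 reads. The largest, circRNA8212 (exons 4 to 9), had 0 in relapse, 7 in SG and 1 in sham. ciRNA666 is filed as intronic, but its span, 13554108 to 13570332, includes exon 4. It had its 3 reads in relapse replicate 2. No Otc junction passed the filter on its own, so none was tested.

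Kynu had 150 reads over 16 junctions on chromosome 3. Its host sum was 866 and 510.4 RPM in relapse, 378, 344, 53.9, 589.8 and 479 RPM in SG, and 397, 1100.4, 364, 602 and 744 RPM in sham. SG replicate 3, with 1 read, was lowest and sham replicate 2, with 20, was highest; the groups overlapped. Means were 688 ± 252 RPM in relapse, 369 ± 201 RPM in SG and 642 ± 299.6 RPM in sham, and all 5 SG libraries lay below the sham mean. The log2 fold change was -0.72 for SG against sham (SE 0.46, interval -1.62 to 0.17, edgeR FDR 0.997, unadjusted p 0.116). It was 0.75 for relapse against SG (SE 0.57, FDR 1 in edgeR) and 0.03 for relapse against sham (SE 0.58, edgeR FDR 0.998).

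These values depend on how Kynu entries were filed. Identifier entries held 76% of its reads, and these numbered 35 in relapse, 29 in SG and 50 in sham. Symbol entries held 0 reads in relapse, 19 in SG and 17 in sham. From symbol entries alone, the pooled level was 2.95-fold the relapse floor in SG and 2.90-fold in sham. That floor is 3 reads over the 2 relapse libraries. These folds leave out counting error in SG and sham and the spread between libraries. In edgeR on symbol entries neither relapse comparison passed (FDR 0.997 against SG and 0.65 against sham). Both kinds of entry together averaged 688 RPM in relapse, against 369 RPM in SG and 642 RPM in sham. In the table as a whole, 38.1% of the values above 0 were single reads in symbol entries, against 2.26% in identifier entries, so the 2 kinds differ in how low their values reach.

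The most abundant Kynu circle, circRNA2975, is in an identifier entry. It spans 6 exons, chromosome 3, 28469498 to 28508354, plus strand. Its end, shared with symbol entries, is that of exon 10 of ENSRNOT00000043533. Its start is not shared with any symbol entry, and counting back 6 exons puts it at exon 5. The exon 5 start of circRNA8206, given below, was counted in the same way. It had 16 and 6 reads in relapse, 4, 5, 0, 4 and 7 in SG, and 2, 5, 2, 10 and 3 in sham. Relapse replicate 1 stood highest, and its 16 reads were all of the Kynu reads in that library. The log2 fold change was 1.51 for relapse against SG (SE 0.94) and 1.18 for relapse against sham (SE 0.94), and -0.33 for SG against sham (SE 0.79), with edgeR FDRs of 0.9995, 0.945 and 0.996. Without relapse replicate 1 the first 2 were 0.04 and -0.29.

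Kynu circles were built on a few shared ends. The end of exon 8 (28474769) closed 7 of the 16 junctions and the end of exon 10 (28508354) closed 5, including circRNA2975. Of the 5 further junctions with at least 10 reads, circRNA6410 (exons 4 to 8) had 0 and 9 reads in relapse, 0 in all SG libraries, and 2, 4, 0, 0 and 0 in sham. circRNA8206 (exons 5 to 8) had 0 in relapse, 3 in SG replicate 1 alone, and 3, 4, 0, 0 and 2 in sham. Both circles end on exon 8 and had their reads in few libraries. circRNA11676 (exons 3 to 4) had 0 in relapse, 4 in SG and 6 in sham. circRNA7395 (exons 3 to 8) had 0 in relapse, 8 in SG, 7 of them in replicate 4, and 2 in sham. circRNA16523 (exons 6 to 10) had 0 in relapse, 0 in SG and 10 in sham, 8 of them in replicate 5. The other 10 junctions held 1 to 6 reads each.

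Prodh2, the hydroxyproline oxidase, had 127 reads over 5 junctions on the plus strand of chromosome 1. Its host sum was 758 and 645 RPM in relapse. It was 473, 246, 324, 491 and 205 RPM in SG and 496, 550.2, 260.3, 501 and 325 RPM in sham. Both relapse libraries lay above all SG and all sham libraries. Of tested hosts, 10.3% separated in this way, in either direction, between relapse and SG, and 10.1% between relapse and sham. In relapse replicate 2, 8 of the 24 reads came from ciRNA560, an identifier entry with reads in no other library. Without these reads that library would lie inside both the SG and the sham range. Counting error was wide: relapse replicate 2, with 24 reads, had a Poisson interval of 413 to 959 RPM, and SG replicate 4, with 15, one of 275 to 811 RPM. Means were 701 ± 80.1 RPM in relapse, 348 ± 129.9 RPM in SG and 427 ± 126 RPM in sham. The log2 fold change was 0.94 for relapse against SG (SE 0.59, interval -0.21 to 2.10, FDR 1 in edgeR, unadjusted p 0.113) and 0.64 for relapse against sham (SE 0.59, interval -0.51 to 1.80, edgeR FDR 0.979). From symbol entries alone these were 0.58 and 0.42. For SG against sham it was -0.30 (SE 0.48, edgeR FDR 0.997).

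A nested set of 3 Prodh2 circles began at 1 exon 10 start (88961079). The shortest, circRNA2000 (exons 10 to 12, to 88961642), had 4 and 0 reads in relapse, 7, 0, 3, 2 and 6 in SG, and 8, 3, 1, 5 and 5 in sham. The middle one, circRNA5208 (exons 10 to 13, to 88964911), had 0 and 7 in relapse, 3, 3, 2, 5 and 0 in SG, and 4, 4, 4, 3 and 2 in sham. The longest, circRNA1999 (exons 10 to 14, to 88966419), had 10 and 9 in relapse, 0, 2, 0, 8 and 0 in SG, and 2, 3, 0, 2 and 0 in sham. Only circRNA1999 among these was higher in both relapse libraries than in every sham library, and it overlapped SG through replicate 4. Such a separation between relapse and sham was seen in 11.5% of tested junctions.

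In RPM, circRNA1999 averaged 392 ± 212 in relapse, 72.1 ± 114 in SG and 66.3 ± 70.2 in sham. The filter's minimum of 240.9 RPM was reached in both relapse libraries (541.3 and 241.8 RPM) and SG replicate 4 (262.1 RPM). No sham library reached it. Because circRNA1999 passed the filter through relapse, its differences from SG and sham are partly set by that choice. Its log2 fold change was 2.21 for relapse against SG (SE 1.50, interval -0.73 to 5.14, FDR 0.9995 in edgeR) and 2.45 for relapse against sham (SE 1.52, interval -0.52 to 5.43, edgeR FDR 0.896). Against SG it was 3.78 without SG replicate 4, 1.65 without relapse replicate 1 and 2.63 without relapse replicate 2. For circRNA2000 the same values were -0.70 (SE 1.39) and -1.04 (SE 1.40), and the 2 circles were not tested against each other. circRNA5208 did not pass the filter. In relapse replicate 1 the circRNA1999 reads stood in the symbol entry and in relapse replicate 2 in the identifier entry, which lists another transcript, and in no library did both entries of a Prodh2 junction have reads. ciRNA560 is filed as intronic, but its span, 88960075 to 88964911, covers exons 10 to 13. It had 8 reads, all in relapse replicate 2, and circRNA10329 had 2.

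**Figure D3:**
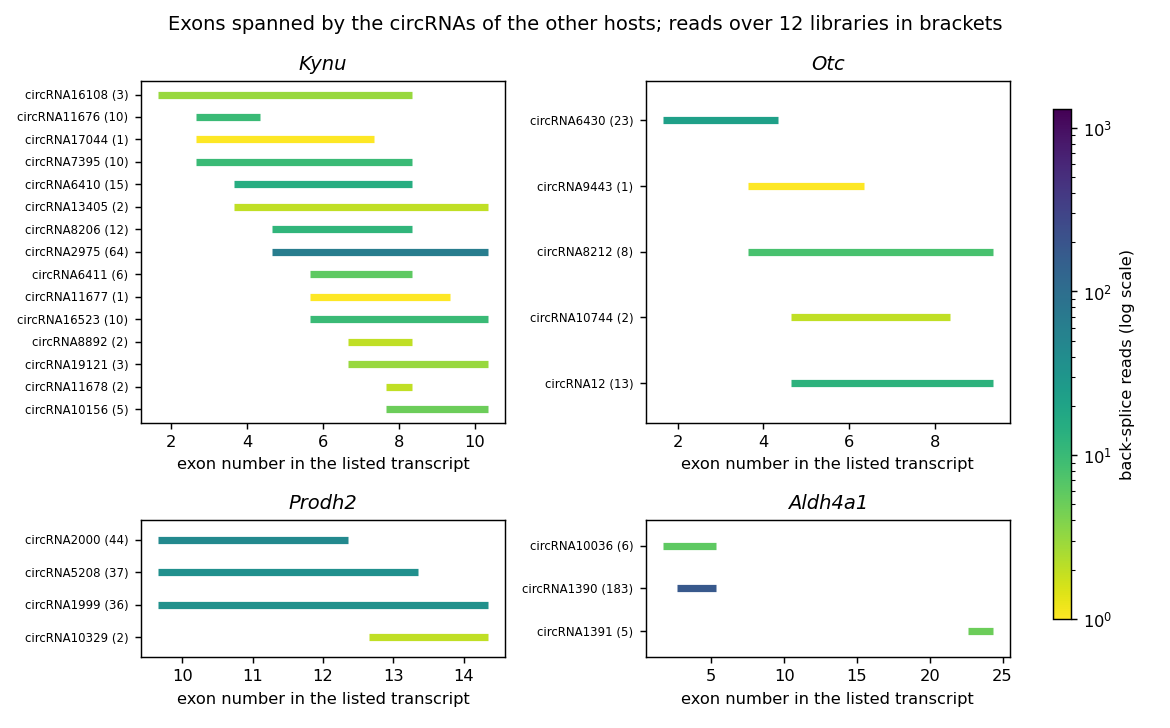
Exons spanned by the exonic circRNAs of Kynu, Otc, Prodh2 and Aldh4a1 whose exon numbers are listed or were placed from a shared edge. The x axis gives the exon number in the listed transcript. Reads over 12 libraries are in brackets and as colour on a log scale. Kynu circles end mostly on exon 8 or exon 10, the 3 main Prodh2 circles share exon 10 as their start, and circRNA1390 of Aldh4a1 holds 183 reads against 6 and 5 for the other 2.

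Aldh4a1, which acts after Prodh2, had 194 reads over 3 junctions on the plus strand of chromosome 5. Its host sum was 1516 and 672 RPM in relapse. It was 614, 589.6, 1294, 459 and 651 RPM in SG and 529.6, 770.2, 625, 351 and 465 RPM in sham. Relapse replicate 1 and SG replicate 3 stood above all others, and the groups overlapped. Means were 1094 ± 597 RPM in relapse, 722 ± 328 RPM in SG and 548 ± 159 RPM in sham, and both relapse libraries and 4 of 5 SG libraries lay above the sham mean. Its log2 fold change was 0.89 for relapse against sham (SE 0.49, interval -0.06 to 1.84, edgeR FDR 0.806, unadjusted p 0.0698), and 0.39 without relapse replicate 1. It was 0.53 for relapse against SG (SE 0.48, FDR 1 in edgeR), 0.00 without relapse replicate 1 and 0.996 without relapse replicate 2. For SG against sham it was 0.36 (SE 0.39, edgeR FDR 0.997), and 0.07 without SG replicate 3.

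As for Cps1, 1 circle carried the gene: circRNA1390 (exons 3 to 5 of ENSRNOT00000090593, 158071477 to 158074209) held 183 of 194 reads (94.3%). It had 23 and 25 reads in relapse, 13, 12, 20, 14 and 19 in SG, and 16, 12, 12, 7 and 10 in sham. In RPM both relapse libraries, at 1245 and 672, were above the highest sham library at 660.2, and they overlapped SG. Of all tested junctions, 11.5% separated between relapse and sham. circRNA10036, which shares its end and starts 1 exon earlier, had 6 reads. circRNA1391 had 5 reads, all in relapse replicate 1; it lies 34426 bases beyond circRNA1390 and spans exons 23 and 24 of another transcript filed under the same symbol.

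**Figure D4:**
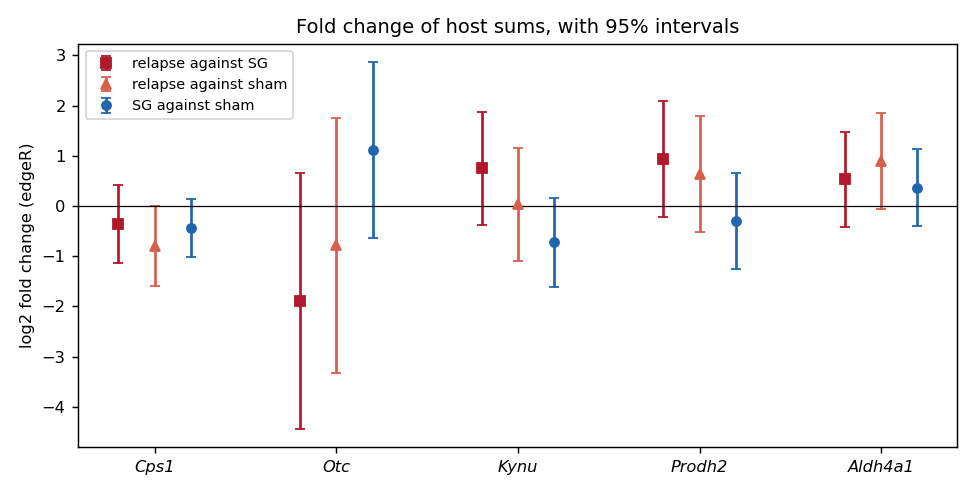
edgeR log2 fold changes of the host sums for relapse against SG, relapse against sham and SG against sham (y axis), with 95% intervals as bars. The interval of every comparison of the 5 hosts includes 0; for Cps1 in relapse against sham it runs from -1.58 to 0.00.

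How far 1 circle dominated was compared with the 531 hosts that had at least 100 reads, among which the median host had 68.0% of its reads in its top junction. Aldh4a1 (94.3%) ranked 82 and Cps1 (93.8%) 90 from the top, Kynu (42.7%) 439 and Prodh2 (34.6%) 488. The median of these hosts had 8 junctions, against 34 for Cps1, 16 for Kynu, 5 for Prodh2 and 3 for Aldh4a1. The 58 exonic junctions of the 5 genes spanned a median of 4 exons, and 5.17% were single-exon circles. The other 17425 exonic junctions of the table spanned a median of 3 exons, with 5.29% single-exon circles.

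Other enzymes of amino acid metabolism were followed in 6 lists. Of 86 listed genes beside the 5, 67 had back-splice reads and 24 passed the filter. None passed an FDR of 0.05 in any comparison in edgeR, and 0 reached an unadjusted p under 0.05 for SG against sham and 1 each for relapse against SG and relapse against sham. The median log2 fold change of the 24 was 0.07 for SG against sham, 0.00 for relapse against SG and 0.00 for relapse against sham, against 0.00, -0.05 and -0.07 over all tested hosts. By list, 2 of 6 other urea cycle genes were tested, 2 of 11 of tryptophan and kynurenine, and 2 of 13 of proline, hydroxyproline and glutamate. The lists of aromatic and histidine, of lysine and branched-chain, and of serine, glycine, threonine and sulfur amino acids had 4 of 11, 10 of 24 and 4 of 21 tested.

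The host with an unadjusted p under 0.05 was Dhtkd1, a mitochondrial enzyme of lysine and tryptophan breakdown. It had 3 and 3 reads in relapse, 17, 2, 16, 14 and 20 in SG, and 19, 9, 8, 3 and 19 in sham. Relapse, at 162 and 80.6 RPM, overlapped the lowest SG library (98.3 RPM) and the lowest sham library (150.4 RPM). Its log2 fold change was -2.34 against SG (SE 0.78, edgeR FDR 0.627) and -2.20 against sham (SE 0.78, edgeR FDR 0.501).

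Beside Cps1 and Otc in the urea cycle, Slc25a13, the mitochondrial aspartate and glutamate carrier, averaged 1576 ± 621 RPM in relapse, 1406 ± 319 RPM in SG and 1521 ± 539 RPM in sham. Arg1, the arginase that releases urea, gave 8, 23 and 11 reads in the relapse, SG and sham groups, with a log2 fold change of 0.85 for SG against sham (SE 1.03). These levels overlapped between groups. Kmo, which makes 3-hydroxykynurenine upstream of Kynu, had 12 and 12 reads in relapse, 8, 0, 5, 8 and 10 in SG, and 19, 6, 7, 0 and 9 in sham. Its log2 fold change was 0.83 for relapse against SG (SE 0.78, FDR 1 in edgeR).

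Of the transaminase and glutamate enzymes, Got1 averaged 309.7 ± 132 RPM in relapse, 423 ± 438 RPM in SG and 279 ± 125 RPM in sham. Glud1 had 6, 11 and 6 reads in the 3 groups in that order. The Got1 values spread widely, with 0 to 20 reads in SG libraries, and Glud1 had at most 6 reads in any library. Hgd, of tyrosine breakdown, averaged 243 ± 116 RPM in relapse, 436 ± 306 RPM in SG and 403 ± 149 RPM in sham.

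Acadsb, of isoleucine breakdown, averaged 512 ± 264 RPM in relapse, 811 ± 269.6 RPM in SG and 590.4 ± 234 RPM in sham. Cbs, the first enzyme from homocysteine to cysteine, averaged 1375 ± 45.6 RPM in relapse, 833 ± 254 RPM in SG and 751 ± 477 RPM in sham, with both relapse libraries above all others. Of all tested hosts, 10.3% separated between relapse and SG and 10.1% between relapse and sham. The log2 fold change of Cbs was 0.69 against SG (SE 0.59) and 0.81 against sham (SE 0.59), with edgeR FDRs of 1 and 0.942. Dmgdh, of choline breakdown, averaged 175 ± 58.1 RPM in relapse, 195 ± 179 RPM in SG and 249.8 ± 101 RPM in sham.

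**Figure D5:**
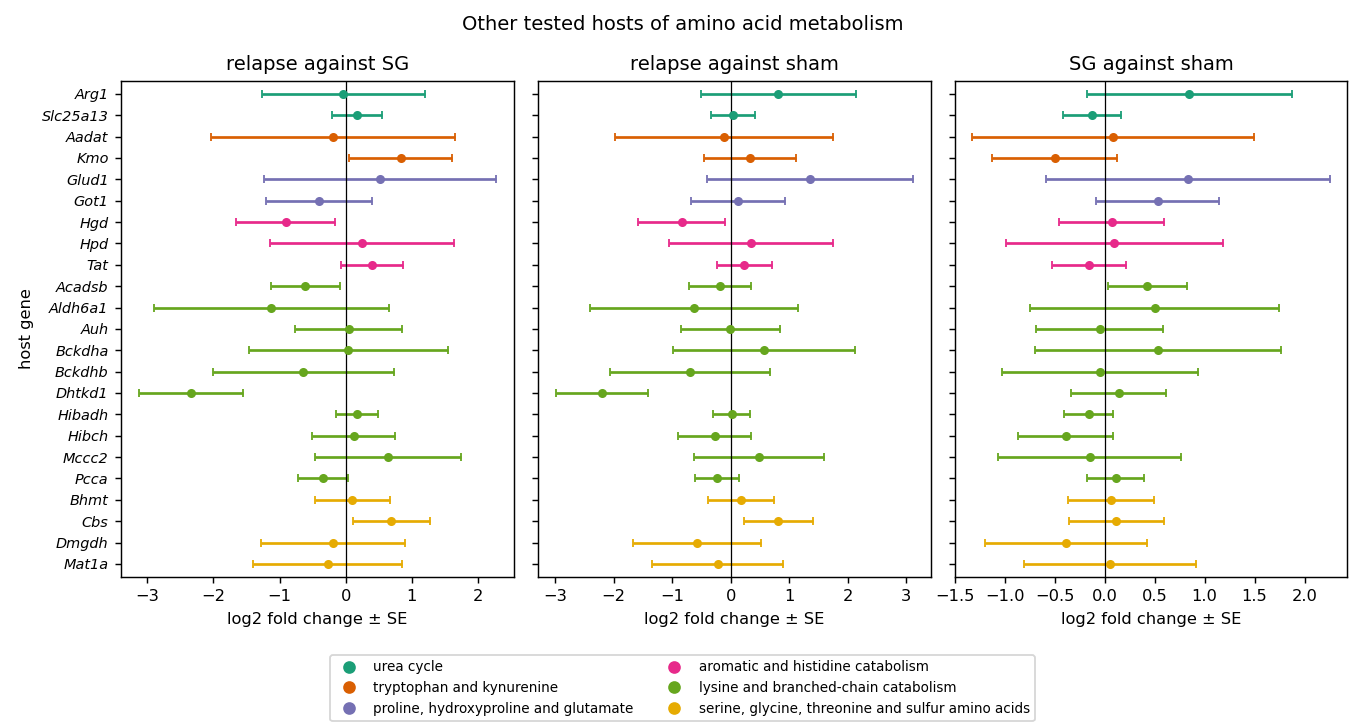
edgeR log2 fold changes ± SE of 23 of the 24 other tested hosts of amino acid metabolism (rows, coloured by list) in the 3 comparisons. Dhtkd1 stands farthest below 0 in relapse against SG, at -2.34, and in relapse against sham, at -2.20. None of those shown passed an FDR of 0.05.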

How the data were processed

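After removal of ribosomal RNA and digestion of linear RNA by RNase R, liver RNA was sequenced in read pairs from strand-marked libraries, per the labels' protocols. cutadapt 1.9, FastQC, TopHat2 2.0.10 and the build Rnor_6.0 are named in the submitters' processing notes; the back-splice caller is not given in the sources used here. The deposited count columns held whole numbers and were taken as raw back-splice read counts. The deposited signal columns (SRPBM) were the count times 1 constant per library and entered only as alternative library sizes.

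Entries of a junction, and all entries of a host gene, were summed; 1449 of 1696 identifiers joined to a symbol. RPM refer to the total of back-splice reads in a library. Hosts and junctions were tested in R 4.3.3 with edgeR 4.0.16 and DESeq2 1.42.0. edgeR was run with quasi-likelihood, TMM and all 12 libraries in 1 fit, after filterByExpr with a minimum count of 5 and total of 15. Its p-values were adjusted by Benjamini-Hochberg over all tested hosts or junctions. Only the edgeR fit of hosts was also run on simulated counts, with the same spread for every host. The 5 genes, the lists and the tests were chosen with earlier results of these data known. Named were the 5 hosts, their junctions with at least 10 reads, the listed host with the smallest p per list and comparison, and the 3 hosts most like Cps1. Circles shown with fewer reads were picked after their values were seen. Intervals of counts and shares are exact at 95%; those of fold changes are a normal approximation from the SE. No circRNA sequence was used here, and 1 listed host is not reported here.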

Additional observations from a re-analysis of the deposited data

Results flagged for a closer look

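Within groups of 5 libraries, a value was picked out where its gap to the nearest other library exceeded 0.71 of the group's range (Dixon's test at 95%). For values drawn from a normal distribution chance picks out about 1 in 20 groups. That rate does not hold for the sparse circles here. A group with reads in 1 library alone is always picked out and a group with none never is. Of 40 groups, 5 were picked out. The Aldh4a1 host sum of SG replicate 3 was 1294 RPM, against 459 to 651 RPM in the other SG libraries. The other 4 are Kynu circles with few reads. circRNA11676 had 220.1 RPM in sham replicate 2, against 0 to 52.1 RPM in the other sham libraries. circRNA7395 had 229 RPM in SG replicate 4, against 0 to 47.3 RPM in the other SG libraries, and 100.3 RPM in sham replicate 4, against 0 RPM in the other sham libraries. circRNA8206 had 142 RPM in SG replicate 1 and 0 RPM in the other SG libraries. No cause was tested for these values.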

How the results depend on the processing

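No member host or junction passed an FDR of 0.05 under any alternative. Over 30 member results, 267 of 273 alternative values and 228 of 240 values with 1 library left out kept their direction; the cause of the others was not tested unless stated. Leaving out libraries gave -1.09 to 0.16 for Cps1 (relapse against SG), -0.21 to 0.36 for Kynu (relapse against sham), -1.33 to 0.80 for circRNA1999 and -0.57 to 0.23 for circRNA2975 (SG against sham), -4.92 to 0.41 and -5.25 to 0.070 for circRNA2000 (relapse against SG and sham), -1.10 to 0.17 for circRNA2271 (relapse against SG) and -0.29 to 1.94 for circRNA2975 (relapse against sham). From symbol entries alone, Kynu was -4.85 (relapse against SG) and -4.94 (relapse against sham), fitted values that depend on the prior count because relapse then has 0 reads, and circRNA2000 was 0.066 (relapse against SG; 0.043 with entries not summed).

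Hosts past the threshold for SG against sham, 2 as reported, numbered 0 with SRPBM library sizes, 0 with a minimum count of 10, 0 in DESeq2 and 1 from symbol entries. For relapse against SG, 1 as reported, they numbered 0, 0 and 0 in the first 3 of these, 0 from symbol entries, 0 in a fit of the 2 groups alone and 2 with no filter. For relapse against sham, 2 as reported, they numbered 1 with SRPBM sizes, a minimum count of 10, symbol entries or the 2 groups alone, and 3 with RLE size factors, library totals, no filter or the replicate block. Junctions, 0 as reported, numbered 2 (relapse against SG) and 1 (relapse against sham) with no filter, and 1 for relapse against sham in the 2 groups alone. With 1 library left out, hosts ranged from 0 to 2 for SG against sham, 0 to 1 for relapse against SG and 0 to 5 for relapse against sham (5 without sham replicate 5), and junctions from 0 to 0, 0 to 2 and 0 to 2. Where 1 relapse library remained, it was assumed to vary like the other groups. SRPBM sizes, an alternative chosen after seeing the data, moved the median of all hosts by 0.17, 0.14 and 0.34 (log2).

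The Cps1 share difference, SG minus sham, was 1.55 points when junctions under 10 reads were left out, where circRNA15320 alone remains beside circRNA2271. With 1 library left out it ranged from -1.58 to 1.13 points, from -0.54 to 2.41 for relapse minus SG and from -0.81 to 1.99 for relapse minus sham. Correlations of deviations from group means were -0.10 to 0.04 for same-numbered libraries and -0.099 to 0.067 for the others. Counting error in sparse hosts makes such correlations small, so they cannot show whether replicate numbers pair the libraries. With the replicate block, 1, 2 and 1 junctions passed for SG against sham, relapse against SG and relapse against sham, Kynu was -0.056 for relapse against sham and circRNA1999 was -0.26 for SG against sham. Otc rests on at most 10 reads in each library.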
